A study of Mus musculus with 10 samples.

Results

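The genes described here are 40 skeletal muscle genes among the 27267 genes listed for interscapular brown adipose tissue (iBAT), the brown fat depot between the shoulder blades. They were chosen by symbol from what is known of muscle: 8 genes common to all fibres (thin filament, titin, nebulin and Z-disc), 14 of fast fibres, 9 of slow fibres, 2 of calcium release and its regulation, 4 of energy supply and oxygen binding, and 3 myogenic regulators. All 40 were listed. RNA from C57BL/6 males at 4 weeks of age, 5 labelled wild type and 5 labelled global *Mgp*-KO (a deletion of matrix Gla protein in all tissues), was sequenced with single reads of 50 bases. Libraries are called by their labels throughout, although *Mgp*-KO 4 and 5 held *Mgp* RNA, as given below. Mice of both genotypes received the same chow and light cycle, and no further allele or treatment was named. The methods describe 5 pairs of mice, and the labels number the libraries 1 to 5 in each genotype.

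Muscle contracts by the sliding of myosin heads along actin filaments, switched on when calcium binds the troponin complex. Fast and slow fibres build the same sarcomere from different gene copies, with *Myh1*, *Myh2* and *Myh4* encoding the fast myosin heavy chains and *Myh7* the slow form. Brown adipocytes and skeletal muscle share a developmental origin in the somites, and iBAT lies directly on muscles of the back and neck. Whole tissue RNA was measured, so that fewer cells of a type and less RNA per cell cannot be told apart.

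Some libraries stood apart before any muscle gene was considered. Libraries 1 to 3 of both genotypes held between 19616366 and 22252260 reads on genes, with 0.771 to 1.72% of them on mitochondrial ribosomal RNA. Libraries 4 and 5 held between 9253793 and 13281873 reads, with 6.50 to 16.7% on that RNA, and the labels name no batch. The targeted gene *Mgp* was at 576, 489, 466, 1146 and 839 normalized counts in wild type 1 to 5. The libraries labelled *Mgp*-KO 1 to 5 had 0, 0.765, 0.821, 500.2 and 331. Libraries 4 and 5 labelled *Mgp*-KO thus go against their label, and the tests between genotypes are also given without them. Wild type 2, labelled male, held 5094 normalized counts of *Xist*. Brown adipocyte markers were present throughout, with *Ucp1*, the uncoupling protein of thermogenesis, between 38421 and 116019 normalized counts in wild type and between 2201 and 15641 in *Mgp*-KO.

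To show the regulatory sequence next to the measurements, the 250 bases upstream of the RefSeq start are printed for 4 of the genes, 5′ to 3′ on the strand of the gene. *Acta1* encodes skeletal actin (chr8:123894776-123895025, minus strand), *Mylpf* the fast regulatory light chain (chr7:127211358-127211607, plus strand), *Ckmt2* the mitochondrial creatine kinase of muscle (chr13:91876886-91877135, minus strand) and *Casq2* a calsequestrin that binds calcium in the sarcoplasmic reticulum (chr3:102086165-102086414, plus strand). The first 3 are shown because their values followed most of the list from library to library, and *Casq2* because its values did not. Coordinates are of GRCm38.p6, and none of these windows holds an annotated exon base. That of *Mylpf* lies in an intron of a longer annotated transcript, and those of *Ckmt2* and *Casq2* end directly before the annotated gene. Capitals mark matches to the letters TATAAA or CAGCTG (a myogenic E-box), a CArG box or a MEF2 box, on either strand.
Acta1: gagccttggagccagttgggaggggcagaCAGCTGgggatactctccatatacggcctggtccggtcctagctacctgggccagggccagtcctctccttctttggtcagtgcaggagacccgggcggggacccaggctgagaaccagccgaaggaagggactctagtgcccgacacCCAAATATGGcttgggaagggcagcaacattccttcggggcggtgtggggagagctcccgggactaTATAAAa
Mylpf: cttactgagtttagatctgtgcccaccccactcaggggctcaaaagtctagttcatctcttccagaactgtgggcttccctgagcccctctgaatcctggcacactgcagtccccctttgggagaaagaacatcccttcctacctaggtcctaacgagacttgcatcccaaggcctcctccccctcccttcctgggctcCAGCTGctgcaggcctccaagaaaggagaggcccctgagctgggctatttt
Ckmt2: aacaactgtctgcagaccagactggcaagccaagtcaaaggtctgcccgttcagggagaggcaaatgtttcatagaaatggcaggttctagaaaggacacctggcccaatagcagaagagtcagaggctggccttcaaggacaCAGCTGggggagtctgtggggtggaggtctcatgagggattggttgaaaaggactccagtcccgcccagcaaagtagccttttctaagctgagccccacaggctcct
Casq2: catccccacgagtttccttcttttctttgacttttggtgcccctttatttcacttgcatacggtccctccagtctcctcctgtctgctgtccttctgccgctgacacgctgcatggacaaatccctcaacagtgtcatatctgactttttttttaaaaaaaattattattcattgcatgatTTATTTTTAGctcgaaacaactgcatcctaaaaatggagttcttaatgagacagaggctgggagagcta

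RefSeq start windows were available for 31 of the 40 genes, 38 windows in all. The E-box CAGCTG was found in 44.7% of these and in 13.0% of all 32851 windows of the same length. A CArG box was found in 13.2% against 1.47%, a MEF2 box in 15.8% against 2.92%, and TATAAA in 15.8% against 12.4%. These are matches of letters in a fixed window and were not related to binding or to the counts.

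To determine how far the muscle genes varied from library to library, their levels were first summed in each library. The 40 genes summed to 2615, 2212, 12606, 5227 and 10551 normalized counts in wild type 1 to 5. Their sums were 2865, 74183, 2863, 4178 and 69026 in *Mgp*-KO 1 to 5. They took 0.0147 to 0.0844% of all reads on genes in wild type. In *Mgp*-KO 2 and 5 they took 0.436 and 0.443%, and in *Mgp*-KO 1, 3 and 4 they took 0.0178, 0.0178 and 0.0279%. Muscle RNA was thus high in *Mgp*-KO 2 and 5, intermediate in wild type 3, 4 and 5 and *Mgp*-KO 4 and lowest in wild type 1 and 2 and *Mgp*-KO 1 and 3, and both genotypes spanned low and higher libraries. More than 3 reads, the floor below which a gene was taken as not detected (2.15 to 5.19 normalized counts, depending on the library), were found for 23, 21, 38, 34 and 36 of the 40 genes in wild type 1 to 5. The corresponding numbers in *Mgp*-KO 1 to 5 were 20, 39, 19, 27 and 38.

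The order of the libraries was shared by most of the genes. *Mgp*-KO 2 and *Mgp*-KO 5 were the highest libraries for 35 of the 40 genes. Wild type 1, wild type 2, *Mgp*-KO 1 and *Mgp*-KO 3 were below the other 6 libraries for 24 of the 40. The 5 genes for which *Mgp*-KO 2 and 5 were not the highest libraries were *Myl1*, *Casq1*, *Casq2*, *Myod1* and *Myog*. The genes share the libraries, so these counts describe the libraries and not 40 separate observations.

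**Figure D1:**
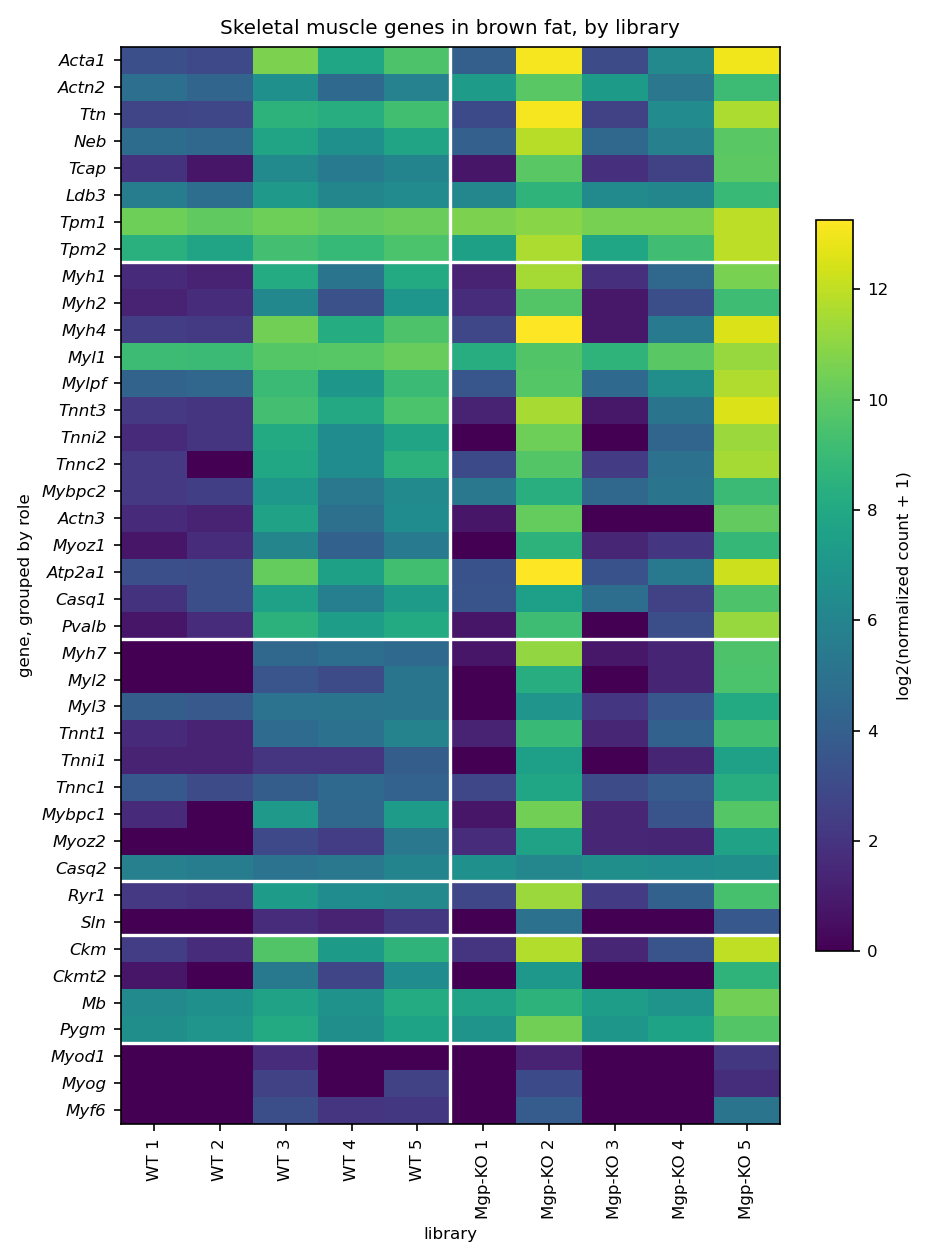
Heat map of log2(normalized count + 1) of the 40 skeletal muscle genes (rows, grouped by role and separated by white lines) in the 10 libraries (columns, wild type left and *Mgp*-KO right of the white line). The columns *Mgp*-KO 2 and *Mgp*-KO 5 are brightest for 35 of the 40 genes, whereas *Tpm1*, *Myl1* and *Casq2* keep a similar colour in every column.

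Among the genes common to all fibres, *Acta1* (chr8:123891769-123894751), the actin of the skeletal thin filament, was at 8.58, 6.74, 1613, 227 and 746 normalized counts in wild type 1 to 5. It was at 15.1, 8838, 7.39, 76.1 and 8182 in *Mgp*-KO 1 to 5. The highest library held 1311-fold more than the lowest, and the genotypes overlapped, with *Mgp*-KO 2 and 5 above all wild-type libraries. *Ttn*, the giant spring protein of the sarcomere, was at 5.72, 5.99, 384, 306 and 599 in wild type and at 6.78, 8621, 4.93, 84.2 and 3172 in *Mgp*-KO. *Neb*, the ruler of the thin filament, ranged from 21.7 to 211 in wild type and from 15.8 to 3657 in *Mgp*-KO. *Tcap*, which caps titin at the Z-disc, ranged from 0.749 to 76.5 in wild type and from 0.754 to 953 in *Mgp*-KO. For each of these 4 genes, *Mgp*-KO 2 and 5 were above all wild-type libraries and *Mgp*-KO 1 and 3 were as low as wild type 1 and 2.

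The tropomyosins and some Z-disc genes had a level in every library on which the muscle pattern sat. *Tpm1*, a tropomyosin also used outside skeletal muscle, was at 1284, 1043, 1300.5, 1076 and 1196 normalized counts in wild type and at 1577, 1928, 1485, 1510.3 and 3933 in *Mgp*-KO. Here the lowest *Mgp*-KO library was above the highest wild-type library. *Tpm2*, the beta tropomyosin, was at 336, 214, 621, 465 and 722 in wild type and at 188, 3214, 223, 589 and 3873 in *Mgp*-KO, with *Mgp*-KO 2 and 5 again highest. *Actn2*, the alpha-actinin of the Z-disc, was at 27.9, 18.7, 99.2, 22.0 and 58.8 in wild type and at 159.8, 946, 148, 37.2 and 538 in *Mgp*-KO. *Actn2* was therefore higher in *Mgp*-KO 1 and 3 than in any wild-type library, although *Acta1* was near its floor there. *Ldb3*, a Z-disc adaptor, ranged from 27.0 to 137 in wild type and from 66.4 to 485 in *Mgp*-KO.

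The fast fibre genes made up the largest part of the muscle counts in *Mgp*-KO 5 and *Mgp*-KO 2, with sums of 35503 and 32624 normalized counts. *Myh4*, the myosin heavy chain of the fastest fibres, was at 4.29, 3.74, 1414, 299 and 761 in wild type and at 6.03, 9844, 0.821, 42.1 and 6163 in *Mgp*-KO. *Myh1* was at 2.15, 1.50, 287, 33.7 and 279 in wild type and at 1.51, 2881, 2.46, 21.0 and 1565 in *Mgp*-KO. *Myh2*, of the fast oxidative fibres, was at 1.43, 2.25, 72.0, 8.79 and 125 in wild type and at 2.26, 833, 0.821, 8.09 and 574 in *Mgp*-KO. All these myosins were within a few reads of 0 in wild type 1 and 2 and *Mgp*-KO 1 and 3. The genes lie side by side on chromosome 11 and are close copies, so reads could be misassigned among them. Of the other fast genes, *Atp2a1*, the fast calcium pump, reached 9780.1 in *Mgp*-KO 2 and *Tnnt3*, fast troponin T, 5975 in *Mgp*-KO 5, against 8.24 and 2.99 in wild type 2.

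*Myl1*, the essential light chain of fast fibres, was at 552, 520.4, 859, 900.0 and 1142 normalized counts in wild type and at 309, 810.1, 394, 924 and 2386 in *Mgp*-KO. It was thus well above its floor in every library, including those with hardly any *Myh4*. It made up 77.8 to 91.1% of the fast fibre sum in wild type 1 and 2 and *Mgp*-KO 1 and 3, and 73.2% in *Mgp*-KO 4. Without *Myl1*, the sum of the fast genes was 53.7 and 59.9 in wild type 1 and 2, 88.2 and 89.5 in *Mgp*-KO 1 and 3, and 31814 and 33118 in *Mgp*-KO 2 and 5.

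Among the slow fibre genes, *Myh7* was at 0, 0, 21.3, 26.4 and 22.5 normalized counts in wild type and at 0.754, 2239.8, 0.821, 1.62 and 750.3 in *Mgp*-KO. *Myl2*, the slow regulatory light chain, was at 0, 0, 10.3, 7.33 and 34.6 in wild type and at 0, 309, 0, 1.62 and 727 in *Mgp*-KO. *Tnnt1*, slow troponin T, ranged from 1.50 to 60.6 in wild type and from 1.51 to 604 in *Mgp*-KO. These slow genes had the same high and low libraries as the fast ones.

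*Casq2*, counted here with the slow genes, followed neither set. It was at 52.9, 45.7, 31.6, 38.1 and 62.3 normalized counts in wild type and at 99.5, 69.6, 97.7, 87.4 and 96.1 in *Mgp*-KO. All *Mgp*-KO libraries were above all wild-type libraries, and within *Mgp*-KO the lowest value was in *Mgp*-KO 2, which was one of the 2 highest libraries for each of the other 8 slow genes. *Casq2* made up 62.7 to 89.8% of the slow sum in the 4 libraries lowest in muscle RNA and 60.7% in *Mgp*-KO 4. Its copy of fast fibres, *Casq1*, ranged from 2.86 to 189.7 in wild type and from 4.86 to 743 in *Mgp*-KO, and overlapped between the genotypes.

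Of the genes of calcium release, *Ryr1*, the release channel of skeletal muscle, was at 3.58, 2.99, 161, 86.5 and 74.4 in wild type and at 6.03, 2490.0, 4.11, 16.2 and 668 in *Mgp*-KO. *Sln*, which encodes the calcium pump regulator sarcolipin, was at 0, 0, 2.21, 1.47 and 3.46 in wild type and at 0, 31.4, 0, 0 and 11.7 in *Mgp*-KO. It passed 3 reads in *Mgp*-KO 2 and 5 alone. In the other 8 libraries *Sln* was therefore not detectable at this depth, in tissue with abundant *Ucp1*.

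Of the energy genes, *Ckm*, muscle creatine kinase, was at 4.29, 2.25, 807, 148 and 398 normalized counts in wild type and at 3.01, 3357, 1.64, 9.71 and 4078 in *Mgp*-KO. *Ckmt2* was at 0.715, 0, 39.7, 5.86 and 86.5 in wild type and at 0, 134, 0, 0 and 393 in *Mgp*-KO, and it passed 3 reads in 5 libraries, the same that were highest in *Ckm*. *Mb*, which encodes the oxygen-binding myoglobin, was at 80.1, 99.6, 199, 107 and 284 in wild type and at 199.7, 377, 165, 115 and 1393 in *Mgp*-KO. *Pygm*, muscle glycogen phosphorylase, ranged from 96.6 to 276 in wild type and from 117 to 1385 in *Mgp*-KO. *Mb* and *Pygm* were thus read in all libraries, and *Ckm* and *Ckmt2* mainly where *Acta1* was.

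The myogenic regulators were near or under the floor in most libraries. *Myod1*, the determination factor, was at 0, 0, 2.21, 0 and 0 normalized counts in wild type and at 0, 1.53, 0, 0 and 3.52 in *Mgp*-KO, and never passed 3 reads. *Myog*, which drives terminal differentiation of myoblasts, was at 0, 0, 5.15, 0 and 5.19 in wild type and at 0, 6.88, 0, 0 and 2.34 in *Mgp*-KO. *Myf6*, the regulator of mature fibres, was at 0, 0, 8.09, 2.93 and 3.46 in wild type and at 0, 13.8, 0, 0 and 32.8 in *Mgp*-KO. *Myf6* therefore had its 3 highest values in libraries rich in sarcomere genes.

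**Figure D2:**
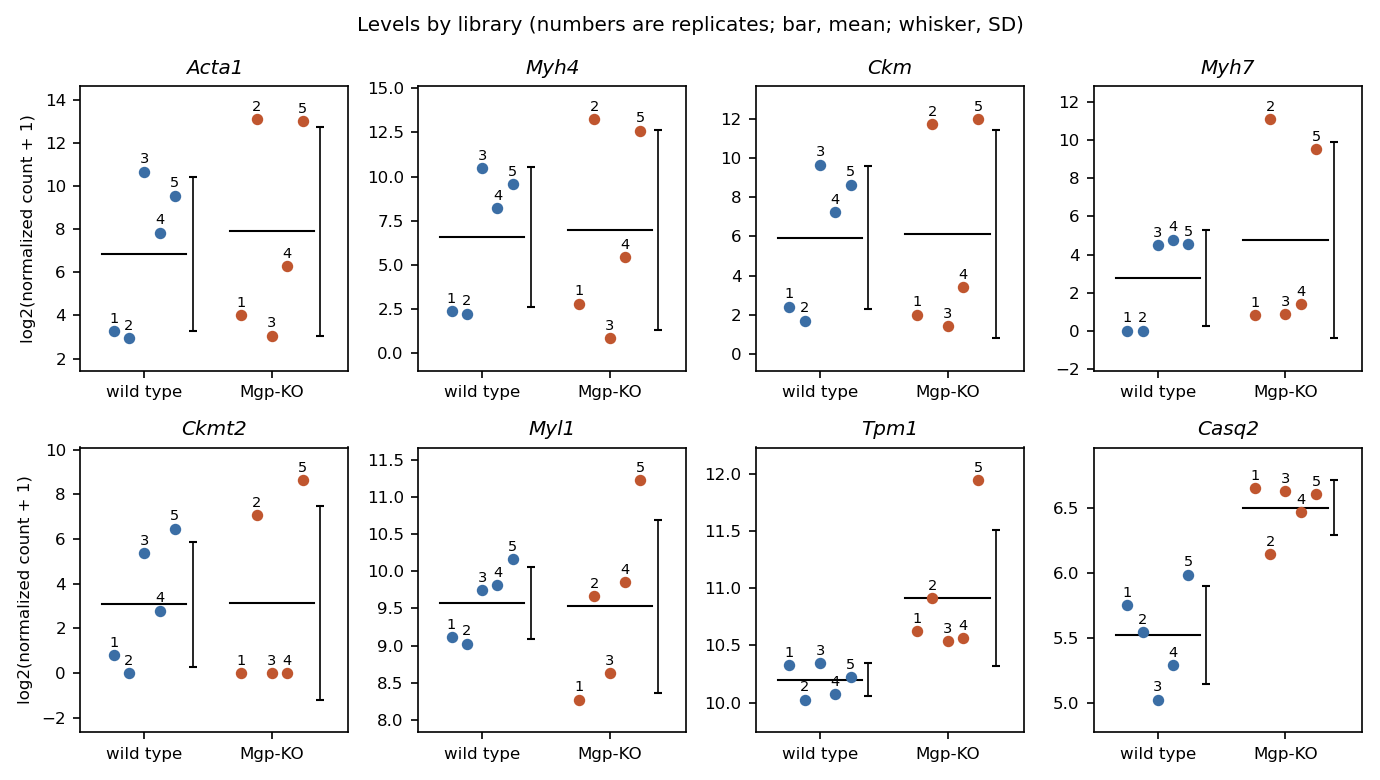
Levels of 8 genes as log2(normalized count + 1) in the 5 wild-type (blue) and 5 *Mgp*-KO (orange) libraries. Numbers are replicates, horizontal lines are means and whiskers 1 SD. In *Acta1*, *Myh4*, *Ckm*, *Myh7* and *Ckmt2* the points 2 and 5 of *Mgp*-KO are highest and the genotypes overlap, and in *Tpm1* and *Casq2* they do not overlap.

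To determine whether the spread followed genotype, each gene was compared between the 5 libraries labelled *Mgp*-KO and the 5 of wild type with limma, and p-values were adjusted over all 13714 genes with a mean of at least 10 normalized counts. Of the 40 genes, 36 entered this test, and *Sln*, *Myod1*, *Myog* and *Myf6* were too low. None of the 36 passed an adjusted p of 0.05 in limma, where 9 of all genes tested did (0.0656%). An unadjusted p under 0.05 in limma was found for 3, *Actn2*, *Tpm1* and *Casq2*, where 10.4% of all genes had one. With edgeR on the recovered reads 0 of the 36 passed the threshold, where 0.0219% of all genes did. An unadjusted p under 0.05 in edgeR was found for 13 of the 36, where 11.4% of all genes had one. With a replicate block (a term for each replicate number), edgeR gave 4 of the 36 an unadjusted p under 0.05, where 2621 of 13714 genes had one. In that blocked fit 0 of the 36 passed the threshold, where 1.62% of all genes did. Without *Mgp*-KO 4 and 5, 0 of the 36 passed in limma, where 1.96% of all genes did, and 0 in edgeR, where 1.86% did. In that edgeR fit 8 of the 36 had an unadjusted p under 0.05, where 19.6% of all genes had one. With DESeq2 3 genes passed, of the 38 that received an adjusted p, where 1.38% of all 27122 genes with a p-value passed. DESeq2 without *Mgp*-KO 4 and 5 gave an adjusted p to 20 of the 40 genes, of which 2 passed, where 4.26% of all genes with a p-value passed.

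The fitted differences were imprecise. The log2 difference of *Acta1* (*Mgp*-KO minus wild type) was 1.04 (SE 2.22, n = 5 and 5, limma adjusted p = 0.910). It was 0.41 for *Myh4* (SE 2.55, adjusted p = 0.971), 0.18 for *Ckm* (SE 2.38, adjusted p = 0.985) and 1.99 for *Myh7* (SE 2.13, adjusted p = 0.804). The median log2 difference of the 36 genes was 0.99, with 32 of them above 0, beside 0.03 for all genes tested. The median was -0.16 without *Mgp*-KO 2, -0.05 without *Mgp*-KO 5, 0.15 without wild type 2 and 0.42 without wild type 1. It was 1.65 without *Mgp*-KO 1 and 1.66 without *Mgp*-KO 3, each with 36 of the 36 genes above 0, and 0.09 without both *Mgp*-KO 4 and 5, all in limma. The difference of *Myh7* was 1.51 without *Mgp*-KO 4 and 5 (limma adjusted p = 0.745). The 95% interval included 0 for 33 of the 36 genes, and its median width was 7.81 on the log2 scale. Differences of many fold in either direction are thus within these intervals. Count models without the replicate block, which compare mean counts rather than mean logarithms, gave larger values. The log2 difference in edgeR was 2.71 for *Acta1*, 2.68 for *Myh4*, 2.45 for *Ckm* and 5.52 for *Myh7*, and that in DESeq2 was 2.72, 2.69, 2.45 and 5.42. The median was 2.70 in edgeR without the block, with 36 of the 36 genes above 0, and none of these 4 genes passed in either tool. With the replicate block the edgeR median was 1.07, with 34 of the 36 genes above 0, near the 0.99 of limma. The larger edgeR median thus depended on leaving out the block. For the libraries without *Mgp*-KO 4 and 5 the median was 2.39 in edgeR, with 34 of the 36 genes above 0, and 2.16 in DESeq2. Both fits had no block, so that the value near 0 was found with limma and not with these count models.

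The 3 genes with the smallest p were not those with the largest muscle signal. *Casq2* differed by 0.98 (SE 0.24, limma adjusted p = 0.134), and its interval ran from 0.46 to 1.49. *Casq2* passed with a term for replicates 4 and 5 in limma (adjusted p = 0.0431, where 2.36% of genes passed) and with DESeq2 (adjusted p = 0.00934). *Actn2* differed by 2.51 (SE 0.78, limma adjusted p = 0.254) and passed with DESeq2 at 3.01 (adjusted p = 0.00272). *Tpm1* differed by 0.72 (SE 0.26, limma adjusted p = 0.343) and passed under one setting, DESeq2 without *Mgp*-KO 4 and 5. *Tnnc1*, the troponin C of slow fibres, passed with DESeq2 alone, at 2.98 (adjusted p = 0.0446), where limma gave 1.29 (SE 1.04, adjusted p = 0.713). The log2 differences in limma without *Mgp*-KO 4 and 5 were 0.95 for *Casq2* (adjusted p = 0.114), 2.90 for *Actn2* (adjusted p = 0.0696), 0.49 for *Tpm1* (adjusted p = 0.149) and 0.71 for *Tnnc1* (adjusted p = 0.726). In DESeq2 without these libraries *Casq2* (0.96, adjusted p = 0.0232) and *Tpm1* (0.49, adjusted p = 0.0407) passed, and *Actn2* and *Tnnc1* received no p-value. The values of *Tnnc1* were 11.4, 7.49, 14.0, 22.0 and 17.3 in wild type and 6.03, 229, 7.39, 13.0 and 309 in *Mgp*-KO, so that its difference lay in *Mgp*-KO 2 and 5.

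The genotypes did not overlap for *Tpm1* and *Casq2*, both higher in *Mgp*-KO. Among all genes tested 3.50% did not overlap, and 2 of 36 is a share near this background. Without *Mgp*-KO 4 and 5 the genotypes did not overlap for *Casq2*, *Actn2* and *Tpm1*, where 17.9% of all genes did not overlap. Tropomyosin 1 is also made by vascular smooth muscle, whose 8 markers summed to 2177 to 4158 normalized counts in wild type and to 2968 to 4550 in *Mgp*-KO. The part of smooth muscle in the values of *Tpm1* was not tested.

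The second grouping was that of replicates 4 and 5 against 1 to 3, in which 38.2% of all genes passed in limma with genotype in the model. Of the 36 muscle genes 1 passed, *Myl1*, which was higher in replicates 4 and 5 by 1.19 (SE 0.35, limma adjusted p = 0.0191). The call of *Myl1* was lost without *Mgp*-KO 5 (0.81, adjusted p = 0.0530), and adjusted p ranged from 0.00373 to 0.0530 over all settings tried. Without *Mgp*-KO 2, the library of replicates 1 to 3 richest in muscle RNA, 9 of the 36 passed, all higher in replicates 4 and 5, where 38.2% of all genes passed. These were *Myl1*, *Ttn*, *Tpm2*, *Myh4*, *Tnnt3*, *Tnni2*, *Tnnc2*, *Pvalb* and *Tnnt1*. None of the 36 genes passed the test of the interaction of genotype with this grouping in limma (smallest adjusted p = 0.559), which 0.00729% of all genes passed. Each genotype had 2 libraries in replicates 4 and 5, which limits this test. Those labelled *Mgp*-KO held *Mgp* RNA against their label, so the test cannot tell an interaction from a wrong label.

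The spread itself was much larger than that of other genes. The SD of log2(normalized count + 1) within genotypes had a median of 3.40 over the 36 genes and of 0.48 over all 13714 genes, of which the 95th percentile was 1.34. Of the 36 genes 30 were in the top 5% of all genes by this SD, and *Myh4* had the highest SD of all (4.89). *Casq2* (0.31), *Tpm1* (0.43), *Myl1* (0.89), *Mb* (1.13), *Ldb3* (1.19) and *Pygm* (1.25) were below that percentile. The SD was larger in *Mgp*-KO than in wild type for 34 of the 36, where it was so for 9265 of all 13714 genes. Its medians in *Mgp*-KO and wild type were 4.08 and 2.44, beside 0.51 and 0.39 for all genes. In *Mgp*-KO, values were above all wild-type libraries in *Mgp*-KO 2 and 5 and near the floor in *Mgp*-KO 1 and 3 for most of these genes. Without *Mgp*-KO 4 and 5 the median SD within genotypes was 3.27, beside 0.37 for all genes. The SD was then larger in *Mgp*-KO for 32 of the 36, where it was so for 3960 of 13507 genes. Of the *Mgp*-KO libraries left in this comparison, *Mgp*-KO 2 alone was high in muscle RNA.

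The sum of squares of each gene over the 10 libraries was then divided among genotype, the grouping of replicates, their interaction and the remainder, which is the variation between libraries of the same genotype and the same replicate group. For the muscle genes genotype took a median of 2.44% and the replicate grouping 11.7%, beside 8.51 and 32.4% for all genes. The remainder took a median of 77.8%, beside 35.3% for all genes. The remainder has more degrees of freedom than the other parts together, so it would take the largest share of an unstructured spread too. It exceeded 50% for 32 of the 36 muscle genes, where 30.6% of all genes did so. The exceptions were *Casq2*, with 76.2% on genotype, *Actn2*, with 48.1% on genotype, *Tpm1*, with 46.2% on genotype, and *Myl1*, with 53.5% on the replicate grouping. Without *Mgp*-KO 4 and 5 genotype took a median of 1.15% for the muscle genes and 19.1% for all genes, with 73.7% for *Tpm1*, 70.0% for *Casq2* and 64.9% for *Actn2*. For most muscle genes the spread was therefore mainly between individual libraries. Tissue pieces, animals and preparations cannot be told apart in these data.

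**Figure D3:**
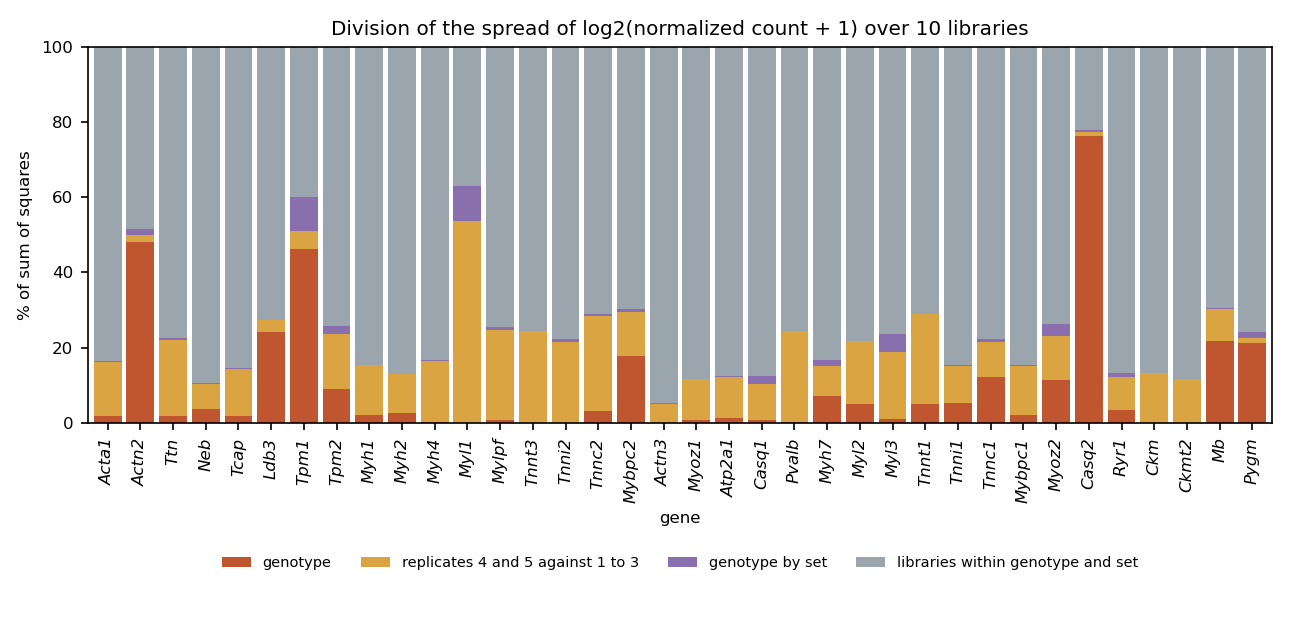
Division of the sum of squares of log2(normalized count + 1) over the 10 libraries for the 36 muscle genes tested, in percent, into genotype, replicates 4 and 5 against 1 to 3, their interaction and the remainder between libraries. The grey remainder exceeds 50% in 32 bars, and the genotype part is tallest in *Casq2* (76.2%).

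To compare fast and slow fibre genes within a library, shares of reads were used. Of the reads of *Myh1*, *Myh2*, *Myh4* and *Myh7* together, *Myh7* took 1.19% in wild type 3 (95% exact binomial interval 0.797 to 1.70, 2440 reads), 7.17% in wild type 4 (4.31 to 11.1, 251 reads) and 1.90% in wild type 5 (1.01 to 3.22, 686 reads). It took 14.2% in *Mgp*-KO 2 (13.7 to 14.7, 20652 reads), 8.29% in *Mgp*-KO 5 (7.68 to 8.93, 7722 reads) and 2.22% in *Mgp*-KO 4 (0.0562 to 11.8, 45 reads). The share in *Mgp*-KO 2 was above that of each of the other 5 libraries by more than counting error, and *Mgp*-KO 5 was above wild type 3 and 5 and overlapped wild type 4 and *Mgp*-KO 4. The remaining 4 libraries held 6 to 14 myosin reads, too few for a share. The intervals cover counting error alone, because reads were not tagged with molecular identifiers and can repeat a molecule.

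*Myh4* took the largest share of myosin reads in each of these 6 libraries, from 57.8% in *Mgp*-KO 4 to 81.3% in wild type 4. Per kilobase of exon its share ranged from 60.2 to 83.8%, and that of *Myh7* was 10.5% in *Mgp*-KO 2, 6.05% in *Mgp*-KO 5 and 0.845% in wild type 3. *Myh1* took 9.16% in wild type 4 and 23.5% in wild type 5, with intervals of 5.90 to 13.4 and 20.3 to 26.8. Among these myosins the reads thus came mainly from fast forms, with a mixture that differed between libraries beyond counting error.

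The troponins, which come as slow and fast copies, gave a similar but less sharp order. *Tnni1*, slow troponin I, took 12.3% of the reads of *Tnni1* and *Tnni2* in *Mgp*-KO 2 (10.9 to 13.9), 7.28% in *Mgp*-KO 5 (6.24 to 8.43) 1.06% in wild type 3 (0.289 to 2.69), 3.33% in wild type 4 (0.406 to 11.5) and 6.11% in wild type 5 (2.67 to 11.7). *Tnnt1* took 14.4% of the reads of *Tnnt1* and *Tnnt3* in *Mgp*-KO 2 (13.4 to 15.5), 9.18% in *Mgp*-KO 5 (8.43 to 9.96) 3.64% in wild type 3 (2.50 to 5.10), 10.7% in wild type 4 (6.76 to 15.9) and 7.74% in wild type 5 (5.45 to 10.6). *Tnnc1* took 21.2% of the reads of *Tnnc1* and *Tnnc2* in *Mgp*-KO 2 (19.1 to 23.4), 9.84% in *Mgp*-KO 5 (8.74 to 11.0) 5.43% in wild type 3 (3.30 to 8.35), 20.3% in wild type 4 (11.8 to 31.2) and 4.55% in wild type 5 (2.20 to 8.20). In each of the 3 troponins the slow share was higher in *Mgp*-KO 2 than in *Mgp*-KO 5, and higher in both than in wild type 3. The slow copy has the longer exons in each pair, with 3600 bases in *Tnni1* against 1497 in *Tnni2*, 2204 in *Tnnt1* against 1583 in *Tnnt3* and 1041 in *Tnnc1* against 800 in *Tnnc2*, and *Myh7*, with 8616, is longer than *Myh4*, with 6016. Long muscle genes were relatively higher in *Mgp*-KO 2 than in *Mgp*-KO 5 and wild type 3, as described below, and the part of length in these shares was not tested. Intervals of wild type 4 overlapped those of *Mgp*-KO 2 in each of the 3. Those of wild type 5 overlapped *Mgp*-KO 5 for *Tnni1* and *Tnnt1*, and also *Mgp*-KO 2 for *Tnni1*. *Tnnc1* held 16, 10, 8 and 9 reads in wild type 1 and 2 and *Mgp*-KO 1 and 3, where *Tnnc2* held 5, 0, 9 and 5, and its share there was 76.2, 100, 47.1 and 64.3%. Its 15, 10 and 8 reads in wild type 4 and 5 and *Mgp*-KO 4 were 22.0, 17.3 and 13.0 normalized counts, against 6.03 to 11.4 in those 4, so that much of its share in these 3 libraries lies at a level also found with hardly any fast muscle RNA. Shares in *Mgp*-KO 4 rested on 13 to 31 reads and had intervals wide enough to include those of *Mgp*-KO 2, except for *Tnnt1*, at 32.3% (16.7 to 51.4).

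**Figure D4:**
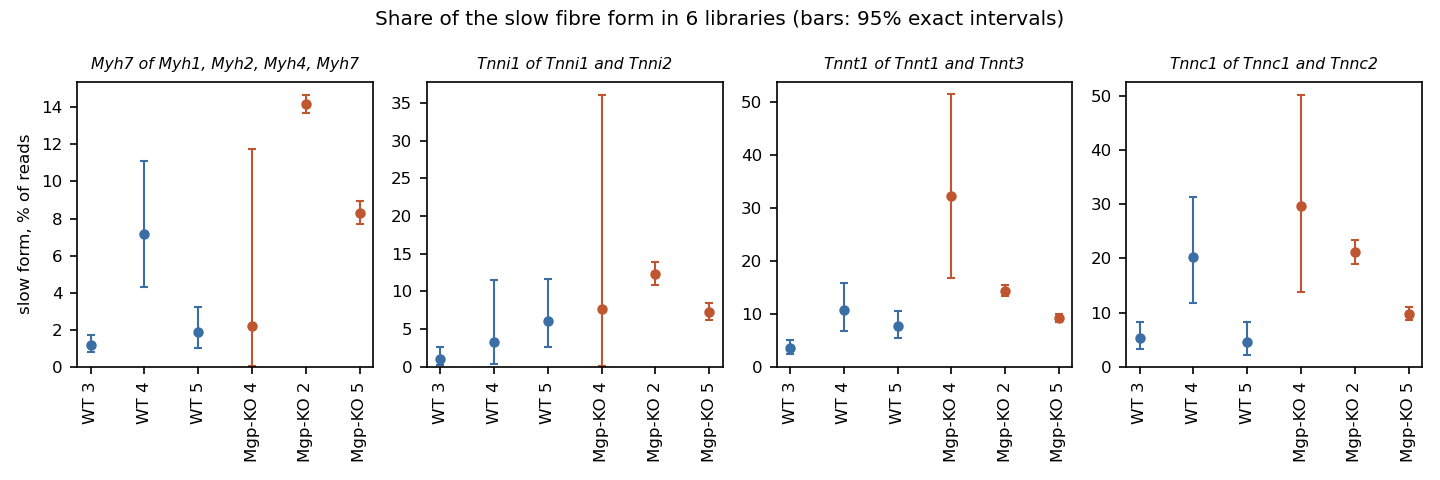
Share of the slow fibre form among the reads of 4 myosin heavy chains and of 3 troponin subunits, in percent, for the 6 libraries with more than 40 myosin reads (wild type blue, *Mgp*-KO orange). Bars are 95% exact binomial intervals for counting error. The myosin share is highest in *Mgp*-KO 2 (14.2%) and lowest in wild type 3 (1.19%), and the intervals of *Mgp*-KO 4 are widest. The *Tnnc1* points of wild type 4 and 5 and *Mgp*-KO 4 rest on 15, 10 and 8 *Tnnc1* reads.

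Over the whole lists, the slow genes took 3.01, 6.14 and 5.08% of the fast and slow counts per kilobase in wild type 3, 4 and 5 and 10.8 and 7.17% in *Mgp*-KO 2 and 5. In wild type 1 and 2 and *Mgp*-KO 1 and 3 the shares were 9.73 to 18.8%, and in *Mgp*-KO 4 it was 8.63%, and in these 5 libraries *Myl1* made up most of the fast and *Casq2* most of the slow counts. Without *Casq2* and *Myl1*, the fast sum was 22.0, 9.37 and 11.2 times the slow sum in wild type 3, 4 and 5 and 6.16, 5.97 and 8.41 times in *Mgp*-KO 2, 4 and 5. In wild type 1 and 2 the fast sum was 1.70 and 2.67 times the slow sum, on 44 and 30 slow reads, and in *Mgp*-KO 1 and 3 it was 7.80 and 5.45 times, on 15 and 20 slow reads.

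*Mgp*-KO 2 and 5 were alike in total muscle signal but not in its composition. The ratio of *Mgp*-KO 5 to *Mgp*-KO 2 was 0.926 for *Acta1*, 1.21 for *Ckm* and 0.626 for *Myh4*. It was 0.254 for *Neb*, 0.268 for *Ryr1* and 0.368 for *Ttn*, and 4.28 for *Pvalb*, the calcium buffer parvalbumin, and 3.84 for *Mylpf*. The genes higher in *Mgp*-KO 5 were short ones. Of the 20 genes with under 3 kb of exon 18 were higher in *Mgp*-KO 5, and of the 16 longer genes 4 were.

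Across the 36 genes with over 30 reads in both libraries, the log2 ratio had a Pearson's r of -0.75 with log2 exon length. Spearman's rho with exon length was -0.73. Both describe a pair of libraries, over genes that share them. For the other 10791 genes with that many reads, rho was -0.22. Within the fast genes alone rho was -0.78, and 9 of the 14 fast and 6 of the 9 slow genes were higher in *Mgp*-KO 5. Length also ordered the ratios of wild type 3 to *Mgp*-KO 2 (rho -0.47, 31 genes) and of wild type 5 to *Mgp*-KO 2 (rho -0.50, 29 genes), and less that of wild type 5 to wild type 3 (rho -0.16, 29 genes). The ratio of *Mgp*-KO 5 to wild type 3 also fell with length (rho -0.48, 31 genes), and that of *Mgp*-KO 5 to wild type 5 did so less (rho -0.28, 29 genes). Relative to the short genes, the long ones were thus highest in *Mgp*-KO 2 and lowest in *Mgp*-KO 5 in these comparisons. The part of RNA quality or library preparation in this was not tested.

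**Figure D5:**
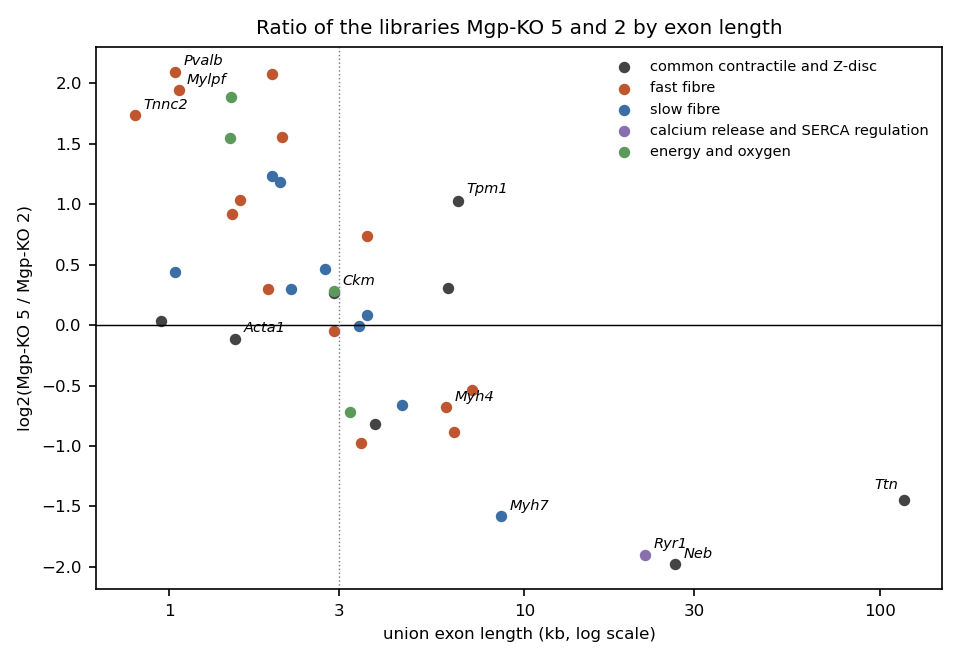
Log2 ratio of *Mgp*-KO 5 to *Mgp*-KO 2 (vertical axis) against union exon length in kilobases (horizontal axis, log scale) for the 36 muscle genes with over 30 reads in both libraries, coloured by role. Points fall from short to long genes (rho -0.73), with *Ttn*, *Neb* and *Ryr1* low and *Pvalb* and *Mylpf* high, and the dotted line marks 3 kb.

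Further muscle genes outside the list of 40 had the same high libraries in part. *Mgp*-KO 2 and 5 were the highest libraries for 17 of 24 further sarcomere genes, 10 of 14 genes of excitation and calcium handling, 4 of 12 of muscle energy supply and 0 of 7 of the neuromuscular junction. None of the 45 of these genes that were tested passed between genotypes in limma, where 0.0656% of all genes did, nor did any of 45 without *Mgp*-KO 4 and 5. *Xirp2*, a Z-disc repair protein, was at 0, 0, 36.0, 35.2 and 91.7 normalized counts in wild type and at 0, 416, 0, 27.5 and 551 in *Mgp*-KO. *Trdn*, triadin of the release complex, was at 0, 0.749, 17.6, 126 and 138 in wild type and at 0, 398, 0, 29.1 and 1362 in *Mgp*-KO. *Chrna1*, an acetylcholine receptor subunit of the synapse, stayed at or below 12.2 in every library. *Chrnb1* of the same list was read in all libraries, from 30.9 in wild type 3 to 253 in *Mgp*-KO 4.

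The genes most like the fast fibre genes were sought among 13678 other genes by Pearson's r with the mean log2 level of the fast list over the 10 libraries. They were *Klhl41* (r = 0.991), *Apobec2* (r = 0.989), *Myot* (r = 0.987), *Myom2* (r = 0.986) and *Smtnl1* (r = 0.974). These are descriptions over the same 10 libraries. Of the first 50 genes, 21 were in the further muscle lists, of which 45 genes were tested.

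To set the muscle genes beside other cell types, marker lists were summed in each library. Of the cardiac markers *Myh6*, *Tnnt2* and *Tnni3* did not exceed 4.69, 4.69 and 6.48 normalized counts in any library, and *Nppa*, *Myl7* and *Nkx2-5* were not listed. The other 3 were higher, with *Sbk2* reaching 203 in *Mgp*-KO 2, *Myl4* 81.3 in wild type 5 and *Ryr2* 66.8 in *Mgp*-KO 5. The cardiac list summed to 128 to 189.6 in wild type and 71.2 to 260.1 in *Mgp*-KO, with the highest sum in *Mgp*-KO 2. Its part in the muscle values was not tested. The satellite cell markers *Pax7* and *Myf5* did not exceed 2.34 and 5.35. The tendon markers *Tnmd* and *Scx* did not exceed 4.69 and 2.29, *Thbs4* reached 58.1 in *Mgp*-KO 2, *Fmod* ranged from 12.9 to 45.2, and *Comp* reached 54.3 in *Mgp*-KO 1. The tendon list summed to 33.7 to 89.7 in wild type and to 62.1 to 122.1 in *Mgp*-KO, with the highest sum in *Mgp*-KO 1. The list of smooth muscle was highest in *Mgp*-KO 4, not in *Mgp*-KO 2 or 5. The 13 brown adipocyte markers summed to 220426 to 421481 in wild type and to 152535 to 310132 in *Mgp*-KO, with the lowest sum in *Mgp*-KO 2 and the highest of that genotype in *Mgp*-KO 5. *Plin1*, a lipid droplet coat protein, was at 1929 in *Mgp*-KO 2 and at 9269 in *Mgp*-KO 5, between 3048 and 14322 in the other *Mgp*-KO libraries. Of the 13 markers 7 were lowest of all libraries in *Mgp*-KO 2 (*Ucp1*, *Dio2*, *Cox8b*, *Cox7a1*, *Prdm16*, *Adrb3* and *Plin1*), 3 in *Mgp*-KO 4 (*Cidea*, *Pparg* and *Adipoq*) and none in *Mgp*-KO 5. *Pparg*, the regulator of fat cell formation, was highest in *Mgp*-KO 2. The part of the adipocyte markers in the muscle values was not tested.

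Of the 40 genes, 16 share exon bases with another annotated gene, in all cases on the opposite strand. These include *Tnnc2* with *Ube2c*, *Atp2a1* with *Rabep2*, and *Myh7* with *Mhrt*. The strand setting of the counting was not found in the methods, so reads of such neighbours could be counted on the muscle gene. In wild type 2, *Tnnc2* was at 0 and *Atp2a1* at 8.24 normalized counts. *Mb*, which overlaps *Gm49540* and *Apol6*, was at 99.6 there, and *Myl3*, which overlaps *Pth1r*, at 12.0. The part of the neighbours in these values was not tested.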

How the data were processed

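RNA-seq libraries of iBAT from 5 wild-type and 5 *Mgp*-KO mice were used. Per the methods, the authors aligned reads to mm10 and counted them per gene in STAR, then scaled each library by a size factor from DESeq2. The deposited unit is thus a signal per gene, in normalized counts, with no value below 0. The annotation release and strand setting were not given in the sources used here. Dividing by the smallest step in a library gave whole reads for 100% of values (within 0.01 reads), from 9253793 to 22252260 per library. The study gives 5 mice per genotype for this assay, and p-values measure the spread between these libraries.

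Groups came from the sample titles. Limma 3.58.1 in R 4.3.3, with a mean-variance trend, was run on log2(normalized count + 1) for genes with a mean of at least 10, with Benjamini-Hochberg adjustment over all genes tested. Fold changes on this scale understate those of low genes. The replicate grouping was tested with genotype in the same model. The genes and lists were chosen with earlier results of these data known. Values of every library are given for *Acta1*, *Ckm*, the 4 myosins, *Sln*, *Ckmt2*, *Mb*, the tropomyosins, the myogenic regulators, the highest gene of each role and each gene called between genotypes, and for further genes as examples. Exon lengths and gene coordinates are from GENCODE for GRCm38, and promoter windows from RefSeq (GRCm38.p6).

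Alternatives were pseudocounts of 0.5 and 10, other filters, a replicate block, a term for replicates 4 and 5, upper quartile scaling, edgeR 4.0.16, DESeq2 1.42.0, fits within replicate groups and each library left out. The spread, edgeR and DESeq2 without *Mgp*-KO 4 and 5 were added after seeing the data. Fits were tested on simulated data without single high libraries, which does not cover genes with the spread of most muscle genes here. Intervals and floors cover counting error only.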

Additional observations from a re-analysis of the deposited data

Results flagged for a closer look

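Within each genotype, a library was looked at again when its distance to the nearest other value, on the log2 scale, took more than 0.71 of the range of the 5. This was checked for 36 genes in both genotypes, 72 groups in all, of which chance alone would give about 1 in 20. It was met in 2. *Tpm1* in *Mgp*-KO 5, at 3933 normalized counts, was above the other 4 *Mgp*-KO libraries, which lay between 1485 and 1928. *Tnni1* in wild type 5, at 13.8, was above the other 4 wild-type libraries, which lay between 1.43 and 2.94 and held 2 to 4 reads. *Acta1*, *Myh4* and *Ckm* were not among them, with *Mgp*-KO 2 and 5 high together.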

How the results depend on the processing

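Few genes passed between genotypes in limma (9), and the count moved to 29 with a pseudocount of 10, 1 with no filter on low values, 15 with a mean of at least 50, 324 with a term for replicates 4 and 5, 3 with edgeR, 374 with DESeq2, 507 in replicates 1 to 3 only, 0 in replicates 4 and 5 only 265 without *Mgp*-KO 4 and 5, and, without these libraries, 251 with edgeR and 1125 with DESeq2 (both chosen after seeing the data). Of the muscle genes 0 passed, and this became 1 with the term for replicates 4 and 5 3 with DESeq2 and 2 with DESeq2 without *Mgp*-KO 4 and 5, and stayed at 0 under the other settings tried. The causes were not tested. With each library left out in turn, 0 to 93 genes and each time 0 muscle genes passed between genotypes, and 4320 to 5325 genes and 0 to 9 muscle genes between the replicate groups. The direction of *Acta1*, *Ckm* and *Myh4* was not stable. Without *Mgp*-KO 4 and 5 their log2 differences were -0.12, -0.88 and -0.94 in limma but 2.49, 2.03 and 2.71 in edgeR and 2.50, 2.04 and 2.72 in DESeq2, *Ckm* was at -0.22 in replicates 4 and 5 only, and with each library left out they ranged in limma from -0.26 to 2.25, from -1.29 to 1.36 and from -1.16 to 1.94. *Myh7*, *Casq2*, *Tpm1*, *Actn2* and *Tnnc1* were higher in *Mgp*-KO under all 23 planned settings and in edgeR and DESeq2 without *Mgp*-KO 4 and 5. Counted in reads with no division by length, the slow share was 4.25, 7.53 and 7.59% in wild type 3, 4 and 5, 13.8 and 10.2% in *Mgp*-KO 2 and 5 and 19.1% in *Mgp*-KO 3. Deviations from the group means correlated between libraries of the same number by 0.53, 0.06, 0.33, 0.52 and 0.51, and 5 of the 10 libraries correlated best with their own number, a hint from the data and not the design. Since 1 of these is under 0.1, the numbers were not taken to pair the mice. With the replicate block 270 genes and 0 muscle genes passed in limma, and 222 and 0 in edgeR. DESeq2 gave an adjusted p between the replicate groups for 9 muscle genes only. The median SD of the muscle genes was 3.40, and 3.27 without *Mgp*-KO 4 and 5, chosen after seeing the data. Genes under 3 reads are limited by depth.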

Other observations

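The developmental myosins were read at low levels. *Myh3*, the embryonic form, did not exceed 7.65 normalized counts in any library. *Myh8*, the perinatal form, was at 0, 0, 0.735, 36.6 and 12.1 in wild type and at 0, 12.2, 0, 14.6 and 16.4 in *Mgp*-KO. *Myh8* was thus highest in wild type 4, which was 1 of the libraries of intermediate muscle signal, and it was not highest in *Mgp*-KO 2 or 5. Its reads were between 0 and 25 per library. *Actc1*, the cardiac actin that developing skeletal muscle also uses, was highest in wild type 5, at 26.0, and was at 3.06 in *Mgp*-KO 2. *Unc45b*, a myosin chaperone of muscle, was at 428, 352, 343, 855 and 500.1 in wild type and at 521, 524, 504, 1853 and 864 in *Mgp*-KO, and its highest library was *Mgp*-KO 4, where *Myh4* was at 42.1. These genes were chosen after their values were seen.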
